A study of Mus musculus with 1 sample.

Results

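The immediate early genes studied here are *Fos*, *Fosb*, *Fosl2*, *Jun*, *Junb*, *Jund*, *Egr1*, *Ier2*, *Atf3* and *Dusp1*, 10 of the 54532 genes listed for the library. They were chosen by name as genes of the AP-1 transcription factor and its stress-induced companions, with earlier results of these data known. Each symbol matched 1 Ensembl identifier. RNA-seq was performed on sorted c-kit+ BM cells of Ctrl mice, which are wild type and of the C57BL/6 strain. Per the labels the sort also required cells negative for lineage antigens and for Sca-1, a fraction known to hold myeloid and erythroid progenitors. The age and number of the mice, and whether they carry a floxed *Gadd45g* allele or *Vav-Cre*, are not given in the sources used here. There is 1 library, so no difference between groups was tested, and the library of *Gadd45g*-deficient mice with MPN was not analysed here.

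Immediate early genes are switched on within minutes of a growth factor, cytokine or stress signal, without new protein synthesis, because the factors that act on their promoters are already present and are activated by phosphorylation. JUN proteins pair with themselves or with FOS and ATF proteins through a leucine zipper to form AP-1, which binds DNA. FOS proteins bind DNA as partners of JUN proteins. In blood formation AP-1 genes are known in monocyte and granulocyte differentiation, and loss of *Junb* in the mouse myeloid lineage is known to cause a myeloproliferative disease. The marrow was flushed, enriched on beads, stained and sorted before lysis, so levels present in the marrow and levels acquired during handling cannot be told apart in this library.

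Markers of other cells were read once for the whole library, and they go against parts of the sort label. *Kit*, the gene of c-kit, had 7.17 FPKM, below the median of 8.66 FPKM over protein-coding genes at or above 1 FPKM. *Ly6a*, the gene of Sca-1, for which the sorted cells were to be negative, had 28.5 FPKM. All 5 lineage antigen genes reached 1 FPKM, among them *Ptprc*, which progenitors also express. All 6 GMP and all 6 MEP markers did, with medians of 309.96 and 95.5 FPKM, and 0 of 5 HSC markers. Of the markers of maturing cells, all 9 of neutrophils and all 7 of erythroid cells did, which took 12.5% and 11.7% of the summed FPKM. So did all 6 B cell, 5 T cell, 5 monocyte and macrophage, and 5 basophil and mast cell markers. Of the megakaryocyte markers 4 of 5 did, with *Gp1bb* listed at 0. Their levels were unlike, with medians of 148 FPKM for B cell and 45.6 FPKM for monocyte and macrophage markers. The medians were 17.7 FPKM for basophil and mast cell, 16.2 FPKM for megakaryocyte and 5.02 FPKM for T cell markers. Of all protein-coding genes, 46.8% reached 1 FPKM, so a count at this minimum is weak evidence of a cell type. The cells are called c-kit+ by their label below, and which of the cells in the library carried the immediate early transcripts was not tested.

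All 10 immediate early genes were expressed, at levels from 13.9 to 306 FPKM, which is the number of fragments divided by the exon length of the gene in kilobases and scaled by the library's total. All 10 passed a minimum of 1 FPKM, which 22.2% of all listed genes and 46.8% of protein-coding genes reached. All 10 also passed 10 FPKM, which 9.37% of all genes and 21.2% of protein-coding genes reached. At 100 FPKM there were 4 of them, *Junb*, *Fos*, *Dusp1* and *Ier2*, where the background was 0.948% of all genes and 2.06% of protein-coding genes. Their median was 85.9 FPKM, which is 9.92 times the median of 8.66 FPKM over the 10290 protein-coding genes at or above 1 FPKM. Of the 10 genes, 7 lay above 90% of those protein-coding genes, a point reached at 49.1 FPKM. As the 10 were chosen with earlier results of these data known, their excess over these backgrounds is a description and not a test. The 10 genes together took 52033 fragments, or 0.330% of the library total of 15783891 inferred from the FPKM values, counting *Dusp1* at the nearest whole fragment. Since the RNA is from a mixture of cells, few cells with a high level and many cells with a low level cannot be told apart.

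*Junb* had the highest level of the 10, 306 FPKM from 11117 fragments (95% Wilson interval, 300.5 to 312). Intervals here cover counting error only, as 1 library holds no spread between mice. The gene lies on the reverse strand at chr8:84974484-84978718 (GRCm38). *Jund*, whose product is the JUN protein least tied to stimulation in many cell types, had 86.5 FPKM from 2277 fragments (interval, 83.0 to 90.1). It lies on the forward strand at chr8:70698949-70700616. *Jun*, which encodes c-JUN, the JNK substrate that gave the family its name, had 85.2 FPKM from 4291 fragments (interval, 82.7 to 87.8). It lies on the reverse strand at chr4:95049034-95052222. The intervals of *Jund* and *Jun* overlap, and the ratio of *Jund* to *Jun* was 1.01 (95% counting interval, 0.964 to 1.07). This near equality rests on the division by length, as *Jund* had 0.531 times the fragments of *Jun*. *Junb* was 3.59 times *Jun* (interval, 3.47 to 3.72) and 3.54 times *Jund* (interval, 3.38 to 3.70), and it made up 64.1% of the summed FPKM of the JUN genes.

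The FOS genes were led by *Fos* alone. *Fos*, which encodes c-FOS, had 272 FPKM from 10087 fragments (interval, 266 to 277) and lies on the forward strand at chr12:85473890-85477273. *Fosl2*, which encodes FRA-2, had 17.9 FPKM from 2729 fragments (interval, 17.2 to 18.5) and lies on the forward strand at chr5:32135801-32157842. *Fosb* had 13.9 FPKM from 1374 fragments (interval, 13.2 to 14.7), the lowest level of the 10 genes, and lies on the reverse strand at chr7:19302696-19310051. *Fosb* is known to be spliced into a full-length and a shorter form, which a value per gene does not separate. *Fos* was 15.2 times *Fosl2* (interval, 14.6 to 15.9) and 19.5 times *Fosb* (interval, 18.4 to 20.6), and it made up 89.5% of the summed FPKM of the FOS genes. In fragments not divided by length these ratios were 3.70 and 7.34, and with the longest annotated transcript as the length 11.5 and 13.2. The JUN genes summed to 478 FPKM and the FOS genes to 304 FPKM, a ratio of 1.57 (interval, 1.54 to 1.61). Without *Junb* and *Fos* the ratio was 5.40, since the remaining JUN genes were far above the remaining FOS genes.

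**Figure D1:**
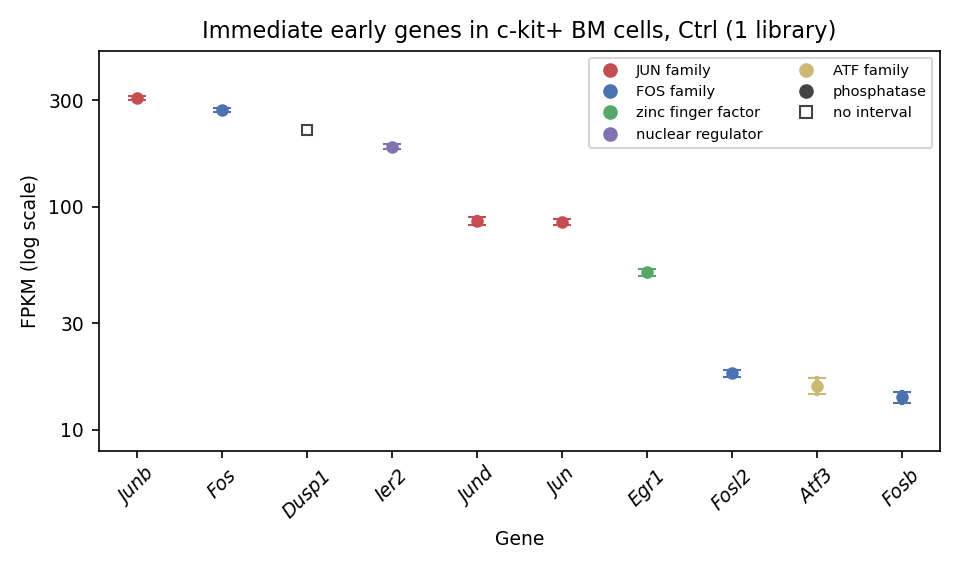
FPKM of each immediate early gene in the Ctrl library on a log axis, coloured by protein family, with 95% Wilson intervals of counting error as bars. Levels run from 306 FPKM for *Junb* down to 13.9 FPKM for *Fosb*. The open square is *Dusp1*, for which no interval was computed.

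The remaining transcription regulators spread over the same range. *Ier2*, which encodes a small nuclear protein, had 186 FPKM from 4468 fragments (interval, 181 to 192) and lies on the reverse strand at chr8:84661331-84662852. It shares a chromosome with *Junb* and *Jund*, and 311631 bases lie between *Ier2* and *Junb*. *Egr1*, a zinc finger factor known for keeping hematopoietic stem cells quiescent, had 50.7 FPKM from 3588 fragments (interval, 49.1 to 52.4) and lies on chromosome 18. *Atf3*, a stress-induced member of the ATF family that pairs with JUN proteins, had 15.7 FPKM from 535 fragments (interval, 14.5 to 17.1). It lies on the reverse strand at chr1:191170296-191218039. The interval of *Atf3* overlaps that of *Fosb* and ends just under that of *Fosl2*, so counting error barely separates *Atf3* from *Fosl2* and does not separate it from *Fosb*.

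*Dusp1* encodes a nuclear phosphatase that removes phosphate from p38, JNK and ERK, the kinases that drive the other immediate early genes. It had 221 FPKM and was the third highest of the 10, at chr17:26505590-26562128 on the reverse strand. With the longest annotated transcript as the length it had 317 FPKM, above *Fos* at 303 FPKM. No interval is given for it, because its FPKM times its length was not a whole multiple of the library's step within 0.01. Among the MAP kinase phosphatases, 9 of 10 genes reached 1 FPKM, as did 46.8% of all protein-coding genes, and the median was 7.05 FPKM. After *Dusp1*, the highest were *Dusp2* at 36.8 FPKM (interval, 34.7 to 38.9) and *Dusp6* at 27.6 FPKM (interval, 26.1 to 29.1). *Dusp9* was the lowest at 0.512 FPKM from 22 fragments.

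**Figure D2:**
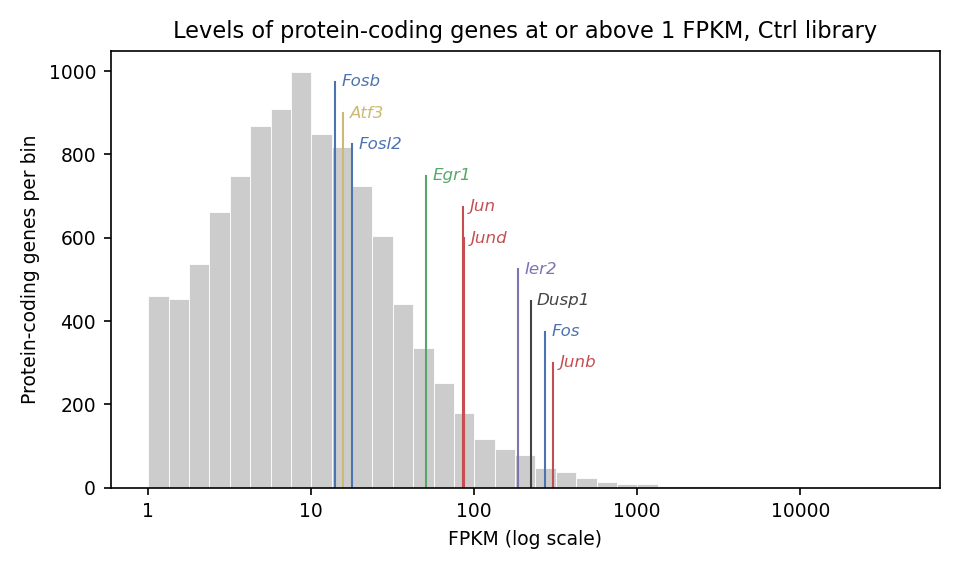
Histogram of the FPKM of the 10290 protein-coding genes at or above 1 FPKM in the Ctrl library, on a log axis, with vertical lines at the immediate early genes. *Junb* lies above 98.8% of these genes and *Fosb* above 64.5%.

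Among the protein-coding genes at or above 1 FPKM, *Egr1* lay above 90.4%. The next gene in order, *Fosl2*, lay above 71.1%, and the step from *Egr1* to *Fosl2*, a factor of 2.84, was the widest between neighbours among the 10 with the exon length used here. *Atf3* lay above 67.5% and *Fosb* above 64.5%. The step from *Ier2* to *Jund*, a factor of 2.15, was the next widest. With the longest annotated transcript as the length the step from *Egr1* to *Fosl2* fell to a factor of 1.92, and that from *Ier2* to *Jund*, still 2.15, was the widest.

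Some promoters of immediate early genes are known targets of CREB and ATF proteins, which bind the cAMP response element (CRE), TGACGTCA, and its core, TGACG. Some are known targets of serum response factor, which binds the CArG box. RefSeq promoter windows (GRCm38.p6), 300 bases from 250 before the start site to 50 after it, were found for 8 of the 10 genes, all but *Egr1* and *Ier2*. On either strand the core TGACG was present in 5 of the 8 windows, against 20.8% of all 32851 windows in the table. Searching the 250 bases before the start alone gave the same 5, where the background was 17.8%. TGACG holds a CG dinucleotide, of which the 8 windows had a median of 23 and all windows a median of 7. All windows are thus an unlike background, and windows of like composition were not compared. This motif was chosen after the values were seen. The 5 were *Fos*, *Fosb*, *Junb*, *Atf3* and *Dusp1*. They are shown for these matches, as the bases just before the RefSeq start site, 5′ to 3′ on the strand of the gene, with TGACG on either strand and TATAAA in capitals:
Fos, chr12:85473740-85473889, forward strand: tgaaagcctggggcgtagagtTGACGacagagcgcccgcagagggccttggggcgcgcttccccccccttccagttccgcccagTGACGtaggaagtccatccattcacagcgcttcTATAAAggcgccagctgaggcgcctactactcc
Fosb, chr7:19310046-19310195, reverse strand: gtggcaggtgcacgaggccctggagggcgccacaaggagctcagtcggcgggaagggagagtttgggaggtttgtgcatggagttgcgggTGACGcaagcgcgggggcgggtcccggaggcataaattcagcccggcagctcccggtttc
Junb, chr8:84978749-84978898, reverse strand: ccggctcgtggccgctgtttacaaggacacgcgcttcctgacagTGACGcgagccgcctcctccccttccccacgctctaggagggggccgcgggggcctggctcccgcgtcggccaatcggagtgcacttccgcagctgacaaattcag
Atf3, chr1:191183334-191183483, reverse strand: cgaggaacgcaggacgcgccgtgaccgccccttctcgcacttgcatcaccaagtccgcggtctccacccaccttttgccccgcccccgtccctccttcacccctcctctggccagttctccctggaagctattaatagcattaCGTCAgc
Dusp1, chr17:26508520-26508622, reverse strand: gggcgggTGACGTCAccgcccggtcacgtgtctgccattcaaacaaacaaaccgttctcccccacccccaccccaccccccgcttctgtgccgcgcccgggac
In the stretch of *Fos* the core began 129 and 66 bases before the start site and TATAAA 33 bases before it. In *Fosb* the core began at 60 bases, in *Junb* at 106 bases and in *Atf3*, where it reads CGTCA, at 7 bases before the start. *Dusp1* held the full CRE, 143 bases before its start, the only 1 of the 8 windows with it, where 1.79% of all windows have it, and a further core at 191 bases before the start, outside the stretch shown. A stretch of *Dusp1* next to the start site is left out because over 30 of its bases lie in an annotated GENCODE exon. The stretches of *Atf3* and *Fosb* hold 7 and 6 such bases, and all 5 bases of the *Atf3* core lie in an annotated exon.

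**Figure D3:**
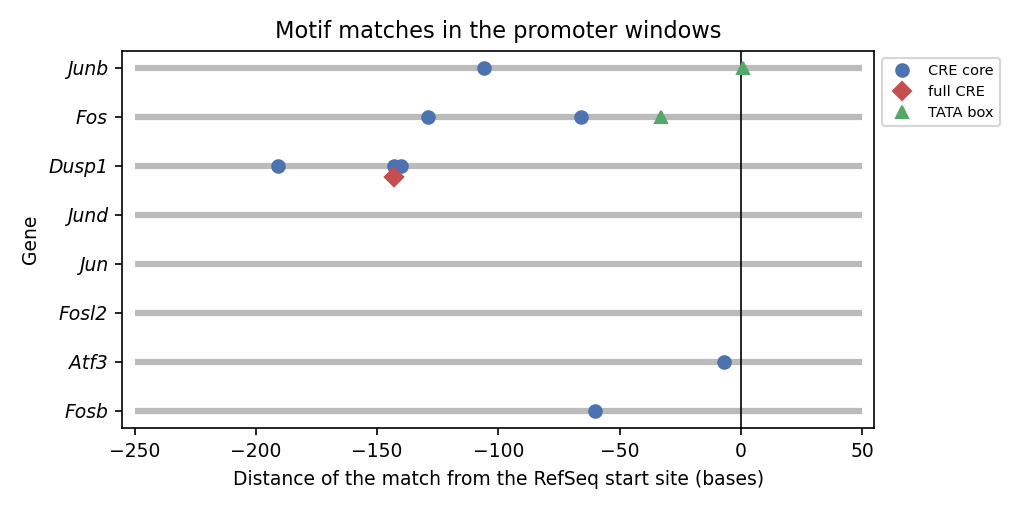
Matches to the CRE core, the full CRE and the TATA box TATAAA on either strand in the promoter windows of 8 immediate early genes, by distance of the first matching base from the RefSeq start site. The genes are ordered by level. Matches to the core lie in 5 windows and the full CRE in that of *Dusp1*.

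Other motifs were less often present. TATAAA was found in 2 of the 8 windows, those of *Fos* and *Junb*, where 13.6% of all windows hold it. The *Junb* match begins at the RefSeq start site, just past the stretch shown, and that site lies 30 bases before the GENCODE start of the gene. The AP-1 site TGANTCA was in 0 of the 8 windows and in 7.81% of all windows. The CArG box was in 0 of the 8 windows and in 1.63% of all windows, or 1.47% before the start alone. With 1 mismatch it was in 2 of the 8, *Atf3* and *Dusp1*, against 9.98% of all windows. The known serum response element of *Fos* lies further upstream than this window reaches. *Jun*, *Jund* and *Fosl2* held none of these letters, and the RefSeq start of *Jund* lies 1210 bases before its GENCODE start. For *Atf3* and *Dusp1* the RefSeq start lies 34706 and 53656 bases inside the GENCODE gene, which has further annotated start sites upstream. The median G+C content was 64.7% over the 8 windows and 52.7% over all windows, and the median number of CG dinucleotides was 23 and 7. A match is a description of the sequence and not evidence of binding in these cells.

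Most of the genes were also compact. In the transcript with the longest coding sequence, *Jun*, *Junb*, *Jund* and *Ier2* have 1 exon, 4 of the 10 genes, where 2.49% of protein-coding genes at or above 1 FPKM have 1. *Egr1* has 2 exons and *Fos*, *Fosb*, *Fosl2*, *Atf3* and *Dusp1* have 4. The median was 3 exons, against 9 over those protein-coding genes. The transcript spans under 10000 bases of the genome in 8 of the 10 genes, all but *Fosl2* and *Atf3*, where the background is 27.4%. *Dusp1* counts by a transcript spanning 2930 bases. Its annotated gene is longer, chr17:26505590-26562128, and has a coding transcript with 6 exons. Among the 1561 protein-coding genes with 1 exon, of which 16.4% reached 1 FPKM, *Junb* ranked 10, *Ier2* 16, *Jund* 23 and *Jun* 24. Those with 1 exon at or above 1 FPKM had a median of 7.76 FPKM, and those with several exons 8.68 FPKM.

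mRNAs of immediate early genes are known to be short-lived, and the pentamer ATTTA in the 3′ UTR is the core of the AU-rich elements through which proteins such as ZFP36 speed their decay. The longer form TATTTAT was present in the 3′ UTR of 7 of the 10 genes, where 26.7% of protein-coding genes at or above 1 FPKM hold it, or 33.8% of those whose 3′ UTR is between 485 and 4653 bases long, the range of the 10. The 3 without it were *Junb*, *Ier2* and *Egr1*. *Dusp1* had the densest pentamers, 5.80 per kb of 3′ UTR, followed by *Fos* with 4.91 and *Junb* with 4.12. *Ier2* had none in 755 bases. The median over the 10 was 2.20 per kb, against 1.20 per kb over protein-coding genes at or above 1 FPKM. Over those with a 3′ UTR in the length range of the 10 it was 1.48 per kb. Among 8 genes for proteins that bind these elements, all reached 1 FPKM, as did 46.8% of all protein-coding genes. *Zfp36*, itself an immediate early gene, had 184 FPKM (interval, 180.3 to 188), *Zfp36l2* 176 FPKM (interval, 173 to 180.0) and *Khsrp* 41.8 FPKM (interval, 40.3 to 43.4), while *Tia1* had 2.87 FPKM (interval, 2.67 to 3.09).

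**Figure D4:**
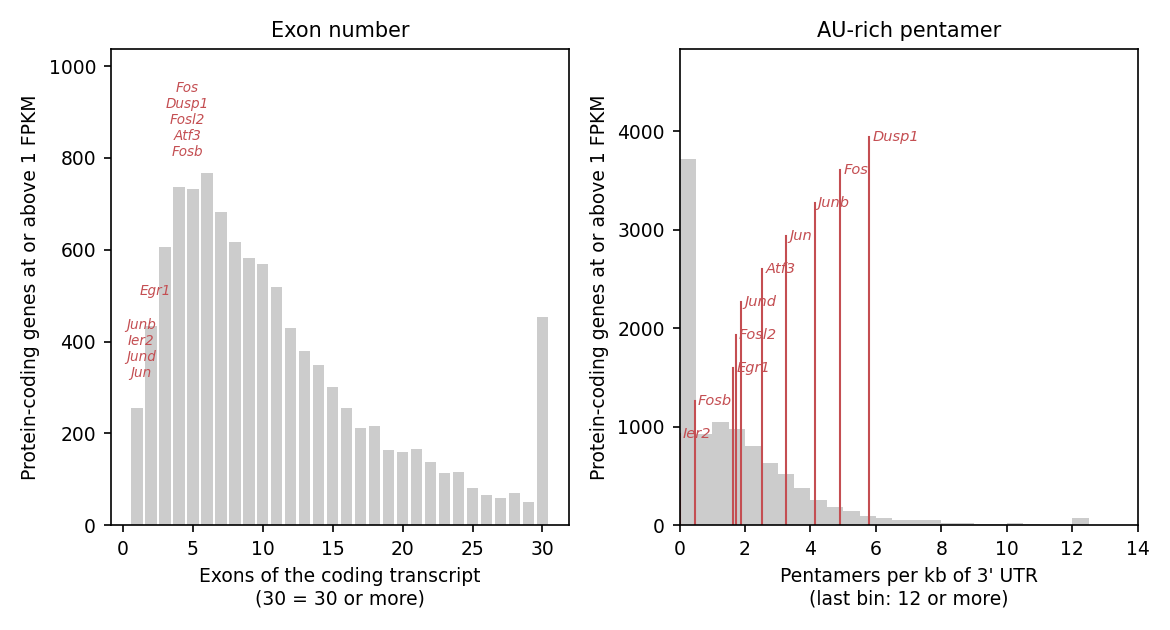
Left, number of exons in the coding transcript, and right, AU-rich pentamers ATTTA per kb of 3′ UTR, as histograms over protein-coding genes at or above 1 FPKM, with the immediate early genes marked in red. *Jun*, *Junb*, *Jund* and *Ier2* have 1 exon, and *Dusp1*, *Fos* and *Junb* have the densest pentamers of the 10 genes.

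Lists of other leucine zipper genes, of whose products only some can pair with JUN or FOS proteins, had lower medians. Their counts at 1 FPKM stand beside 46.8% of all protein-coding genes that reached it. Of the other FOS, BATF and JDP genes, 3 of 5 reached 1 FPKM, and the median was 1.23 FPKM. They were *Jdp2*, a repressive partner of JUN, at 29.0 FPKM (interval, 27.3 to 30.9), *Batf* at 9.51 FPKM (interval, 8.31 to 10.9) and *Batf3* at 1.23 FPKM (interval, 0.866 to 1.75). *Batf2* had 0.352 FPKM from 14 fragments. The 8 ATF and CREB genes were all at or above 1 FPKM, around a median of 6.26 FPKM. *Atf4*, the effector of the integrated stress response, stood out at 156 FPKM (interval, 152 to 160.3), followed by *Atf1* at 38.3 FPKM and *Atf6* at 8.77 FPKM, and *Crem* was lowest at 1.54 FPKM. Of the MAF genes, whose products are also leucine zipper proteins, 5 of 6 reached 1 FPKM, and the median was 4.16 FPKM. *Mafk* had 36.3 FPKM and *Mafg* 33.2 FPKM, while *Nrl* is listed at 0, where 3 fragments would give 0.0334 FPKM.

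Further immediate early genes covered a wider range than the 10. For the counts at 1 FPKM that follow, the share over all protein-coding genes was 46.8%. Of 15 other immediate early transcription factor genes, 11 reached 1 FPKM, and the median was 16.2 FPKM. *Cebpb*, a factor of granulocyte and monocyte formation, had 190.2 FPKM (interval, 185 to 196), *Klf2* 138 FPKM (interval, 134 to 142) and *Klf6* 59.1 FPKM (interval, 57.3 to 61.0), and *Egr4* is listed at 0, where 3 fragments would give 0.0885 FPKM. Of 25 other immediate early genes with other functions, 22 reached 1 FPKM, and the median was 23.8 FPKM. *Mcl1*, a survival gene of the BCL2 family, had 248 FPKM (interval, 244 to 252), and *Zfp36* has been given above. *Btg2*, an antiproliferative gene, had 178 FPKM (interval, 174 to 182), and *Ccn1*, a secreted matrix protein gene, is listed at 0, where 3 fragments would give 0.0941 FPKM. The median of the 10 genes, 85.9 FPKM, was above that of both lists, but all 3 lists were written with earlier results of this library known.

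**Figure D5:**
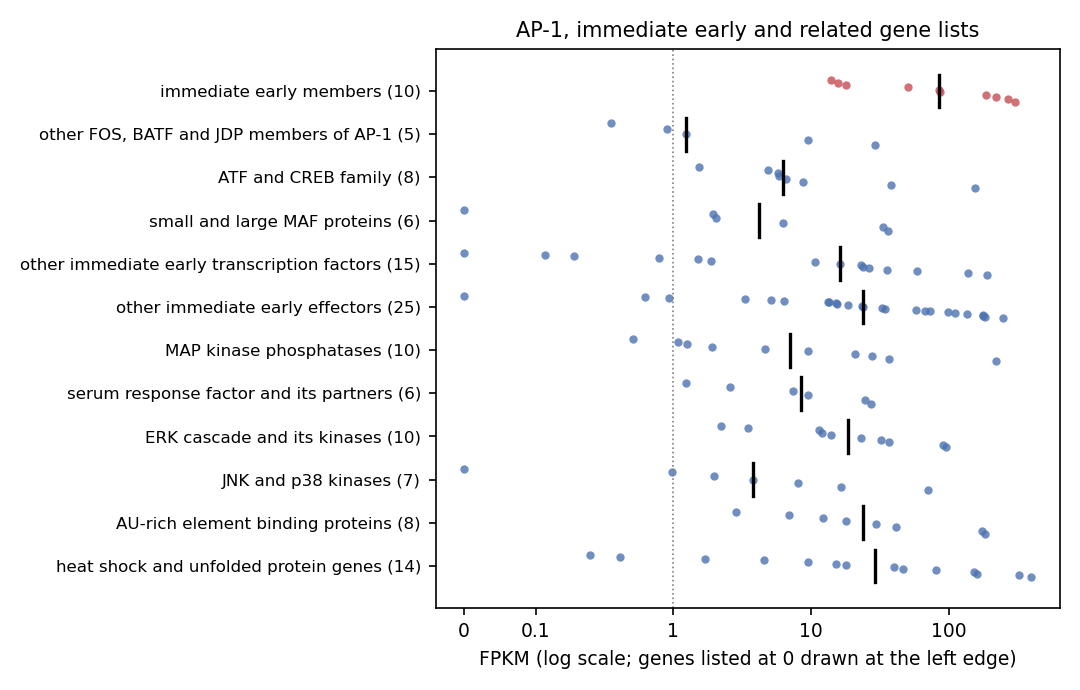
FPKM of each gene in the immediate early genes, in red, and in related lists, in blue, in the Ctrl library on a log axis, with the median of each list as a black line, the number of genes in brackets and a dotted line at 1 FPKM. The medians run from 85.9 FPKM for the immediate early genes to 1.23 FPKM for the other FOS, BATF and JDP genes.

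Genes of the pathways that switch these genes on ranged from 0 to 95.2 FPKM. At the minimum of 1 FPKM used for their counts, 46.8% of all protein-coding genes passed. Of serum response factor and its partners, 6 of 6 genes were at or above 1 FPKM, around a median of 8.50 FPKM. *Srf* itself had 27.5 FPKM (interval, 26.0 to 29.1), *Mrtfa* 24.5 FPKM, *Elk4* 9.57 FPKM and *Mrtfb* 1.23 FPKM. The ERK cascade and its kinases were at or above 1 FPKM in 10 of 10 genes, around a median of 18.6 FPKM, and were led by *Mapk3*, which encodes ERK1, at 95.2 FPKM and *Rps6ka1* at 91.5 FPKM, with *Rps6ka5* lowest at 2.22 FPKM. Of the JNK and p38 kinases, which act on c-JUN and ATF proteins, 5 of 7 reached 1 FPKM around a median of 3.82 FPKM, with *Mapk14* at 70.8 FPKM, *Mapk13* at 16.4 FPKM, *Mapk9* at 8.05 FPKM and *Mapk10* listed at 0, where 3 fragments would give 0.0171 FPKM. Whether these kinases were active cannot be read from their mRNA.

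Overlapping genes limit some of these values, as the strand setting of the counting is not given in the sources used here. Genes on the opposite strand share annotated exon bases with 4 of the 10 genes. *Prdx2*, at 289 FPKM, shares 173 of the 2301 exon bases of *Junb*. The antisense gene *Gm11175* covers 877 of the 1668 exon bases of *Jund* and is listed at 0. *Junos*, at 1.09 FPKM, shares 232 of the 3189 exon bases of *Jun*, and *Ergic1*, at 6.05 FPKM, shares 11 of the 3311 exon bases of *Dusp1*. How fragments on the shared bases were counted was not tested. The ratios among *Junb*, *Jund* and *Jun* given above, and the near equality of *Jund* and *Jun*, carry this limit, which their intervals do not cover.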

How the data were processed

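RNA of sorted c-kit+ BM cells from Ctrl mice was read on an Illumina HiSeq, and the authors deposited 1 FPKM value per gene. Per the submitters' processing notes, HISAT2 2.0.5, featureCounts 1.5.0-p3 and mm10 were used. The annotation, strand setting and options are not given in the sources used here. GENCODE M21 (GRCm38) gave symbols, exon unions and positions, and holds 54495 of the 54532 identifiers.

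FPKM times exon length was a whole multiple of a common step, within 0.01, for 96.4% of 21313 genes above 0. The multiples were read as fragments, for a library total of 15783891 from the step. They were used with that total for 95% Wilson intervals, which cover counting error only. Their sum over the 20547 genes with whole multiples was 15899824. This is above the total from the step, so that total is not the sum of these fragments, and why was not tested. For a gene listed at 0, the value 3 fragments would give is printed. On simulated fragments for this library, 100% of the 19235 genes given their true length and at least 1 simulated fragment were recovered without error, in a run of 21313 genes with 5% of lengths wrong. For these genes the simulation used the same lengths and formula as the recovery. Its total was the sum of its fragments, unlike in the real library, so it does not test the real total or counts.

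The 10 members and all lists were chosen with earlier results of these data known. From each list the 3 highest genes and the lowest are named, with genes that overlap a member, except that some of these are not reported here. With 1 library no gene could be named for a like pattern over samples. Promoter windows are from RefSeq, and motifs were searched on both strands. The motifs other than the CArG box, the 3′ UTR pentamers and the spans were added after the values were seen. Alternatives changed the scaling, the gene length, the detection minimum and the promoter window. Proteins were not analysed here. Values were computed in Python 3.11.15 with scipy 1.17.1 and pandas 2.3.3 on numpy 2.4.6, and drawn with matplotlib 3.10.9.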

Additional observations from a re-analysis of the deposited data

How the results depend on the processing

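No paired analysis was possible because a lone library has no partner. All 10 immediate early genes stayed above the minimum at 0.1 FPKM, at 10 FPKM and at 10 recovered fragments. Their median of 85.9 FPKM was 93.7 FPKM without the 10 most abundant genes in the total and 200.3 when they were rescaled to TPM, factors of 1.09 and 2.33 that are shared by every gene. The ratio of JUN to FOS genes, 1.57 in FPKM, was 1.25 in fragments not divided by length and 5.40 without *Junb* and *Fos*. The ratio of *Junb* to *Jun*, 3.59, was 2.59 in such fragments and 4.57 with the longest annotated transcript as the length, because the exons of *Junb* cover 2301 bases and its longest transcript 1809. With that length *Dusp1*, at 317 FPKM, stood above *Fos*, at 303 FPKM, and *Fosb*, at 23.0 FPKM, above *Atf3*, at 17.1 FPKM, so the order of these pairs depends on the length used. In alternatives chosen after seeing the data, the ratios of *Fos* to *Fosl2* and *Fosb*, 15.2 and 19.5, were 3.70 and 7.34 in fragments and 11.5 and 13.2 with the longest transcript, and that of *Jund* to *Jun*, 1.01, was 0.531 in fragments. *Junb* to *Jund*, 3.54, was 4.88 in fragments and 4.50 with that length. A CArG box with 1 mismatch in its inner letters was in 2 of 8 windows, *Atf3* and *Dusp1*, against 9.98% of all windows. The number of windows with TGACG stayed at 5 when bases before the start site alone were searched, an alternative chosen after seeing the data. With 1 library, no value here has an error between mice.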

Other observations

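Heat shock and unfolded protein genes, another group that responds to stress, were read in the same Ctrl library. Of the 14 genes, 12 reached 1 FPKM, as did 46.8% of all protein-coding genes, and the median was 29.2 FPKM. The highest were chaperones abundant in most cells, *Hsp90ab1* at 399.8 FPKM (interval, 394 to 406), *Hspa8* at 324 FPKM (interval, 320 to 328) and *Hspa5* at 160.1 FPKM (interval, 157 to 163). *Hspb1*, a small heat shock protein gene, was the lowest, at 0.246 FPKM from 4 fragments (interval, 0.0956 to 0.632). The inducible genes *Hspa1a*, at 0.406 FPKM from 19 fragments, and *Hspa1b*, at 1.70 FPKM from 75 fragments, were named after their values were seen. They are near-identical copies, so fragments shared between them may have been left uncounted. Further genes of this list that are known to respond to stress were higher. *Dnajb1* had 40.4 FPKM, *Ddit3* 15.3 FPKM, *Hsph1* 9.46 FPKM and *Bag3* 4.53 FPKM, so the low values of *Hspa1a* and *Hspa1b* do not stand for the list.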
